A study of Mus musculus with 30 samples.

Results

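Forebrain explants treated with crotonate were compared with control explants across 11576 autosomal genes, chosen as the rows of the authors' deposited table for this comparison that have a mean of at least 50 normalized counts and lie on chromosomes 1 to 19. The table has 55385 rows. The explants came from ICR mouse embryos at E13.5, in mid-gestation, and polyA RNA was sequenced from 3 control and 3 crotonate libraries. The labels give neither the dose nor the time of the crotonate treatment of explants, nor what the control explants received, and they do not say whether the libraries of a group came from separate embryos or pools, so the p-values measure only the spread between these libraries, which may be technical. The same series holds neural stem/progenitor cells (NSPCs), grown as cultures from the forebrain of C57BL/6 embryos of that day and treated for 24 h with DMSO, 10 mM crotonate or 1 µM MS-275, which blocks class I deacetylases (4 RNA libraries each; those with MS-275 enter the NSPC tests only through the shared estimate of spread), and 1 chromatin library per mark from the untreated forebrain and from NSPCs.

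Crotonate is the anion of a short-chain unsaturated fatty acid. Inside cells it can be turned into crotonyl-CoA, the donor for lysine crotonylation, a histone mark related to acetylation that is written by p300 and CBP, read by YEATS and double PHD finger proteins, and removed by class I histone deacetylases and sirtuins. In the forebrain at this stage radial glia line the ventricle, divide and give rise to basal progenitors and neurons. The dorsal part makes excitatory projection neurons of the cortex, the ventral part makes GABAergic neurons, and the hypothalamus and the rest of the diencephalon lie behind and below.

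The values are of these kinds. The level of a gene is its baseMean, the mean over the 6 libraries of counts normalized by DESeq2, and fold changes and their standard errors (SE) are those that DESeq2 fitted, all from the authors' deposited table. A gene is called higher or lower where the Benjamini-Hochberg adjusted p of DESeq2's Wald test in that table was below 0.05. The table has no value per library. The mean of each group was therefore back-calculated from baseMean and fold change, and the spread within a group shows only through the SE. No column of the table says which group is the numerator; this was read from the table's title. No read totals per library are given and the depth of each library is unknown, and no value of it can be derived from the table.

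The 2 groups also differed in sex-linked transcripts, none of which is among the 11576 genes. Eif2s3y, Kdm5d, Ddx3y and Uty, which lie on the Y chromosome, had deposited log2 fold changes of 13.02, 12.45, 12.20 and 10.02, each with an SE near 1.18, which are fitted values for genes close to 0 in the control group and no bound. Xist, the RNA that silences 1 X chromosome in female cells, was lower in the crotonate group by a log2 fold change of -1.68 ± 0.096 (SE), and the X-linked genes Kdm5c (-0.39), Kdm6a (-0.38), Eif2s3x (-0.35) and Ddx3x (-0.16), which escape that silencing, were lower too. The sex of the embryos behind the libraries and the treatment cannot be told apart in any result below.

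Of the 11574 genes with a p-value, 2692 (23.3%) were called. With crotonate, 1417 (12.2%) were higher and 1275 (11.0%) lower by the authors' deposited table. Most changes were small: the median absolute log2 fold change of the called genes was 0.19, and the median SE over all 11576 genes was 0.066. A change of at least 2-fold was reached by 9 genes called higher and 15 called lower, and 9 of these 24 are pseudogenes or have predicted names. The lowest fitted value was that of Gm4737 on chromosome 16, a gene with a predicted name named here after its value was seen, at a log2 fold change of -12.08 ± 1.19 (baseMean 379), which is no bound because its crotonate mean lay near 0. Past an absolute log2 fold change of 0.5 there were 87 higher and 150 lower. Tested against an absolute log2 fold change of 0.25 in place of 0, 63 genes were higher and 108 lower. At the edge of the selection 262 genes lay between 50 and 60 normalized counts, and 325 autosomal rows between 40 and 50 were left out.

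**Figure D1:**
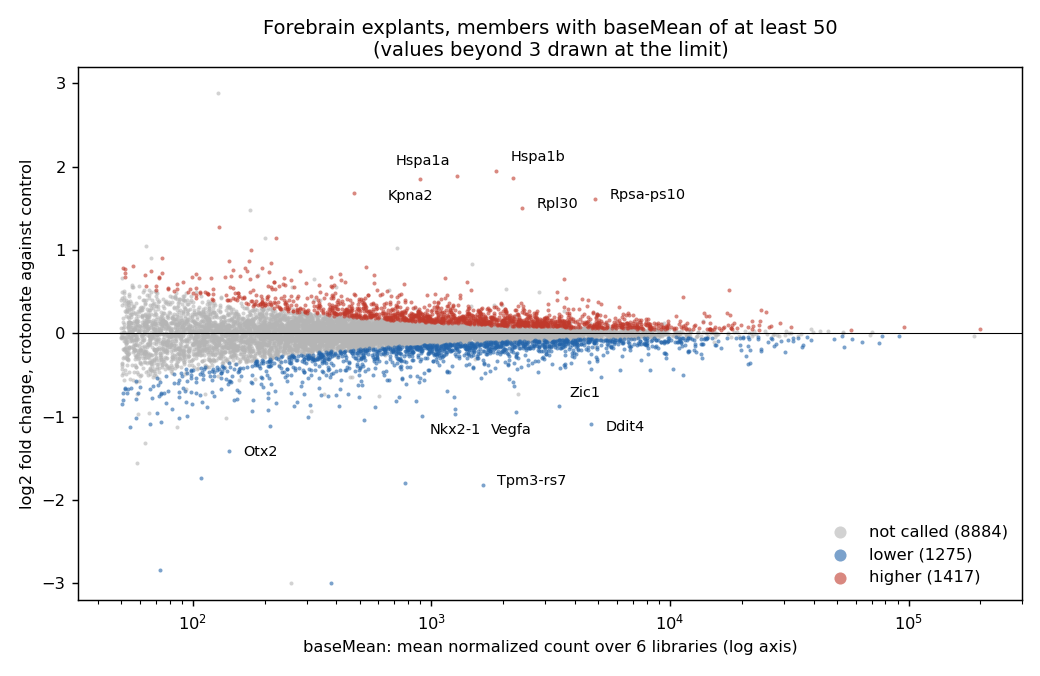
Deposited log2 fold change (crotonate against control) against baseMean on a log axis, 1 point per gene, with 1417 higher genes in red, 1275 lower in blue and the others in grey. Most coloured points lie within 0.5 of 0, Hspa1a, Hspa1b and Kpna2 lie near 2 and Otx2 below -1, and values beyond 3 are drawn at the edge.

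Among genes called higher the largest fold change was that of Hspa1b (chr17:34956429-34959238, GRCm38), 1 of a pair of stress-induced HSP70 genes. Its back-calculated mean went from 775 normalized counts in control to 2976 with crotonate, a deposited log2 fold change of 1.94 ± 0.047 (SE), and the authors' table writes its DESeq2 adjusted p as 0. Its neighbour Hspa1a (chr17:34969359-34972156) went from 546 to 2025 (1.89 ± 0.051, DESeq2 adjusted p = 5.4e-299). The 2 genes are near-identical copies and can share reads, so their values are not independent of each other. Kpna2, the importin alpha that carries proteins into the nucleus, went from 386 to 1400 (1.86 ± 0.13). Its named pseudogene Kpna2-ps had a baseMean of 3.61. The processed pseudogene Gm8399, whose parent gene the tables used here do not name, fell from 1208 to 348 (-1.80 ± 0.16), and whether it or another copy shares reads with Kpna2 was not tested.

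Of the 13 other chaperone genes measured, 8 were higher by smaller amounts, 1 was lower and 4 were not called, with a median of 0.12. Of all 15 measured genes of a list of heat shock and chaperone genes, 10 were higher and 1 lower, and their log2 fold changes had a median of 0.15, where that of all 11576 genes was 0.0039. Hsph1, an HSP110 co-chaperone, rose 1.22-fold from 3517 to 4309 normalized counts (log2 0.29 ± 0.029, DESeq2 adjusted p = 5.1e-22 in the authors' deposited table). Hspa8, the constitutive HSC70, rose by 0.28 ± 0.029 on the log2 scale, and so did Hspe1, the mitochondrial HSP10 (0.28 ± 0.043). Hsp90aa1, the inducible HSP90, rose by 0.15 ± 0.015. Hsf1, the transcription factor that drives these genes under stress, fell by 0.21 ± 0.057 (840 to 727). Hspb1, a small heat shock protein gene, was at -0.55 ± 0.24 and Dnajb1, an HSP40 co-chaperone, at 0.15 ± 0.064, and neither was called.

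Promoters of 3 of these genes are shown so that the near-identity of the HSP70 pair and the heat shock element can be seen. The 250 bases before the start were taken from RefSeq (GRCm38.p6), 5′ to 3′ along the gene. Capitals mark a CCAAT box in the HSP70 pair and a heat shock element (GAA, any 2 bases, TTC, any 2 bases, GAA, on either strand) in Hspe1. Only this exact pattern was searched, so imperfect heat shock elements would not be marked in any of the 3 stretches.
Hspa1b, chr17:34959239-34959488 (- strand): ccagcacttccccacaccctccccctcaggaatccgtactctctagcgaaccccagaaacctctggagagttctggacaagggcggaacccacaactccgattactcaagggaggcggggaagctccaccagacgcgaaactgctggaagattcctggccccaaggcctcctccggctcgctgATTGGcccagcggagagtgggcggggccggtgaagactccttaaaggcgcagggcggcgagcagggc
Hspa1a, chr17:34972157-34972406 (- strand): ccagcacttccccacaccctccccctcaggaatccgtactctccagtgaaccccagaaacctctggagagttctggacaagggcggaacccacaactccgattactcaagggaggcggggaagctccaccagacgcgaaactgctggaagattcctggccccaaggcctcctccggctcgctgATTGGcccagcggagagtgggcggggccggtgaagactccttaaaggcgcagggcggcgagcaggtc
Hspe1, chr1:55087898-55088147 (+ strand): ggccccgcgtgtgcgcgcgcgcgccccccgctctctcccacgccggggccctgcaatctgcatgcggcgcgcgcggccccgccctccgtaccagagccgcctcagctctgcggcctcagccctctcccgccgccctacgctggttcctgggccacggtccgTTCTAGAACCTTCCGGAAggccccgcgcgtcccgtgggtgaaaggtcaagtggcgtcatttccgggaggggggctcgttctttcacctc
The Hspa1a and Hspa1b stretches differ at 3 of 250 positions. Promoter windows, from 250 bases before to 50 after the start, were matched for 9123 of the 11576 genes. The heat shock element was found in 4 of the 11 chaperone genes with a window (36.4%) and in 0.559% of all 9123, and the 2 matches in Hspe1 overlap. It was found in 0.904% of genes called higher and 0.404% of genes called lower. The CCAAT box was found in 6 of the 11 chaperone genes (54.5%) and in 43.6% of all 9123.

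Genes of the hypoxia response and of glycolysis moved the other way. Of the 30 measured genes of this list 19 were lower and 2 higher, and the median log2 fold change was -0.25. Vegfa, the growth factor for blood vessels, fell to 0.519 of control, from 2973 to 1542 normalized counts (log2 -0.95 ± 0.037, DESeq2 adjusted p = 1.9e-143 in the authors' deposited table). Egln3, an oxygen-sensing prolyl hydroxylase that HIF induces, fell by 0.78 ± 0.13 (194 to 113). Pfkfb3, which makes the activator of phosphofructokinase, fell by 0.55 ± 0.036, Slc2a1, the glucose transporter GLUT1, by 0.54 ± 0.043, and P4ha1, a collagen prolyl hydroxylase, by 0.51 ± 0.055. Enzymes of glycolysis fell less: Gpi1 by 0.34 ± 0.026, Pgam1 by 0.34 ± 0.030, Aldoa by 0.28 ± 0.024, Ldha by 0.18 ± 0.024 and Pkm by 0.15 ± 0.013. The members called higher were Aldoc, the brain aldolase (0.30 ± 0.038), and Ndrg1 (0.20 ± 0.060), while Gapdh was at 0.022 ± 0.11 and was not called.

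Ddit4, an inhibitor of mTORC1 signalling that hypoxia and other stresses induce, was counted in the list of the integrated stress response. It had the smallest adjusted p among the lower genes (5.6e-293 by DESeq2 in the authors' deposited table) and fell from 6345 to 2982 normalized counts (log2 -1.09 ± 0.030). Of the 27 other genes of that list 5 were lower and 2 higher, and the median was -0.019. Phgdh, which starts serine synthesis, fell by 0.47 ± 0.040, and Cebpg rose by 0.28 ± 0.045. In the list of the unfolded protein response of the endoplasmic reticulum 2 of 20 were lower (10%, against 11.0% of all genes). In this list 1 was higher (5%, against 12.2%). Bhlhe40, a clock-linked repressor that also responds to hypoxia, fell by 1.11 ± 0.12.

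**Figure D2:**
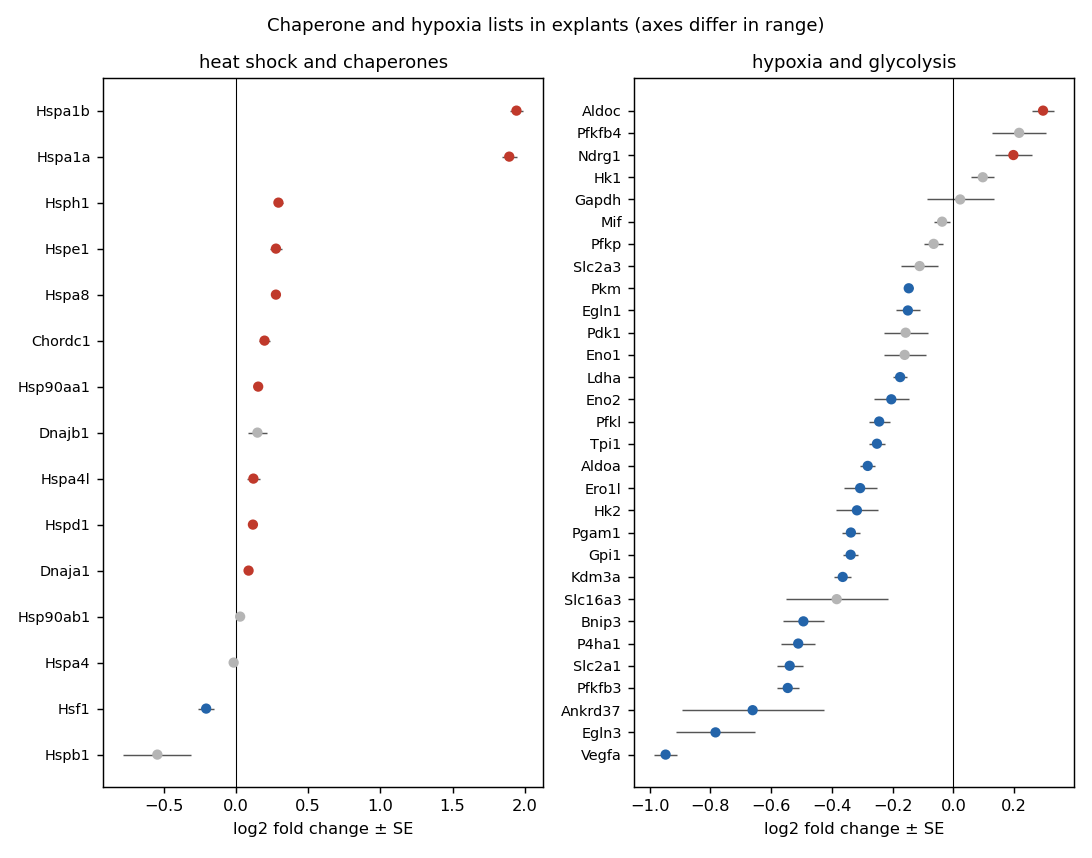
Deposited log2 fold change ± SE for every measured member of the chaperone list (left) and of the hypoxia and glycolysis list (right), with red for higher, blue for lower and grey for genes not called, on axes of different range. Hspa1a and Hspa1b lie near 1.9 and the other chaperones below 0.3, while Vegfa is lowest on the right at -0.95.

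The promoters of Ddit4 and of 3 genes of the hypoxia list, all of which fell, are shown with the hypoxia core ACGTGC, searched on both strands, in capitals.
Ddit4, chr10:59951771-59952020 (- strand): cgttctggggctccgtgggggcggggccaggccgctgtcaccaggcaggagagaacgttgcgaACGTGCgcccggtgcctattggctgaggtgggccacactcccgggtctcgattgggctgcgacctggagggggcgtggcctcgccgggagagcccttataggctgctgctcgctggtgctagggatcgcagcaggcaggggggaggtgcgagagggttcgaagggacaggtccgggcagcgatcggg
Pfkfb3, chr2:11553930-11554179 (- strand): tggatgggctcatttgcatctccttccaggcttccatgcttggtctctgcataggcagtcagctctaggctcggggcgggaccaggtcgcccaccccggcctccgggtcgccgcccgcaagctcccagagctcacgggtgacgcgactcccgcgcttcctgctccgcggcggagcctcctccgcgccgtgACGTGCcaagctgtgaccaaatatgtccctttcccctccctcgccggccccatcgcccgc
P4ha1, chr10:59323046-59323295 (+ strand): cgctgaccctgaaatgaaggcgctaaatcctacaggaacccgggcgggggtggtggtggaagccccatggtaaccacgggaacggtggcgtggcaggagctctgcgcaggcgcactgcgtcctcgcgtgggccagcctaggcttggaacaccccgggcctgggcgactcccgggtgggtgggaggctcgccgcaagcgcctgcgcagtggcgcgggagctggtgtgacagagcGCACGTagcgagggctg
Pgam1, chr19:41911621-41911870 (+ strand): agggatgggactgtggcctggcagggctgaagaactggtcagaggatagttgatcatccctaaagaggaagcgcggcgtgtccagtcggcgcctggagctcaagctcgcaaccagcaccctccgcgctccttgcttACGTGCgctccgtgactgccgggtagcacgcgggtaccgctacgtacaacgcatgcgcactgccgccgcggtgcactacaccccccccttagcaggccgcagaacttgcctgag
The core was found in 12 of 28 promoters of the hypoxia and glycolysis list (42.9%) and in 10.1% of all 9123. Among all genes called lower the share was 10.3%, and among those called higher 9.86%. No test was made of these shares.

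Many genes of cell division were lower and none of those listed was higher. In the list of G1/S and DNA replication 25 of 39 were lower and 0 higher, with a median log2 fold change of -0.20, and in the list of G2/M and mitosis it was 25 of 39 lower and 0 higher, with a median of -0.17. Ccnd1, the cyclin that starts G1 progression, fell from 2032 to 1482 normalized counts (log2 -0.46 ± 0.040, DESeq2 adjusted p = 4.6e-28 in the authors' deposited table). Uhrf1, which recruits DNA methylation at replication forks, fell by 0.36 ± 0.033, Mcm2, a subunit of the replicative helicase, by 0.33 ± 0.033, and Rrm2, the small subunit of ribonucleotide reductase, by 0.34 ± 0.037. The other helicase subunits Mcm3 to Mcm6 fell by 0.15 to 0.23, and Mcm7 was at -0.051 ± 0.029 and was not called. Among mitotic genes Top2a, a topoisomerase of dividing cells, fell by 0.24 ± 0.019 (10360 to 8782), Mki67, the proliferation antigen, by 0.18 ± 0.021, Ccna2 by 0.26 ± 0.033 and Ccnb1 by 0.24 ± 0.035.

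The promoters of Mcm5 and Mcm6 are given with the E2F site, TTTNGCGC on either strand, in capitals, since this site was present in more promoters of the list than of all genes.
Mcm5, chr8:75109259-75109508 (+ strand): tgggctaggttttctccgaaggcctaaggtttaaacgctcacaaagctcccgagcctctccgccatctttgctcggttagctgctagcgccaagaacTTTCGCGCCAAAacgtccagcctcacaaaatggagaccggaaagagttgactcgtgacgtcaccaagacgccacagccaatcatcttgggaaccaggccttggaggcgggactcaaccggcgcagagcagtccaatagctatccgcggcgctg
Mcm6, chr1:128359706-128359955 (- strand): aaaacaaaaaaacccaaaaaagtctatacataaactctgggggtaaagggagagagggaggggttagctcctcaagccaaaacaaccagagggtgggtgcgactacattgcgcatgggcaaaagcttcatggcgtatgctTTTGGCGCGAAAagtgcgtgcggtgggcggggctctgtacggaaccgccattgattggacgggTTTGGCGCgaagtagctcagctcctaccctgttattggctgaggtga
The site was found in 9 of 31 promoters of the G1/S list (29%), in 2.9% of all 9123, in 5.26% of genes called lower and in 2.62% of genes called higher. The CCAAT box was found in 26 of 33 promoters of the G2/M list (78.8%) and in 43.6% of all. A match is a description of the letters in the window and not a bound site.

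Of 20 measured CDK inhibitors and p53 targets 2 were higher (10%, against 12.2% of all genes) and 4 lower (20%, against 11.0%). Cdkn1c, an imprinted CDK inhibitor, fell by 0.25 ± 0.045 and Mdm2, the ligase that limits p53, by 0.12 ± 0.038, while the p53 targets Sesn1 and Trp53inp1 rose by 0.34 ± 0.053 and 0.29 ± 0.045. Of 19 genes of apoptosis 6 were higher (31.6%, against 12.2% of all genes) and 0 lower (against 11.0%). Among those higher were the survival gene Bcl2 (0.36 ± 0.065) and the BH3-only gene Bmf (0.45 ± 0.12). Their adjusted p were 5.9e-07 and 0.0021 (DESeq2, the authors' deposited table).

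Markers of radial glia were lower, with 12 of 24 lower (50%, against 11.0% of all genes), 2 higher (8.33%, against 12.2%) and a median log2 fold change of -0.13. In bulk tissue, fewer cells of a type and less RNA per cell cannot be told apart. Sox2, a stem cell transcription factor, fell from 3126 to 2484 normalized counts (-0.33 ± 0.032, DESeq2 adjusted p = 2.8e-23 in the authors' deposited table), Sox1 by 0.37 ± 0.040 and Hes5, an effector of Notch, by 0.62 ± 0.073. Pax6, the dorsal progenitor factor, was at 0.054 ± 0.035 and was not called, and Fabp7 and Tnc, a lipid carrier and a matrix protein of radial glia, rose by 0.11 ± 0.019 and 0.26 ± 0.047. Notch pathway genes had 7 of 22 lower (31.8%, against 11.0% of all genes) and 2 higher (9.09%, against 12.2%). The receptor Notch1 fell by 0.26 ± 0.028, the glycosyltransferase Lfng that modifies it by 0.87 ± 0.11 and the ligand Dll3 by 0.46 ± 0.097, whereas Rbpj, the DNA-binding partner of Notch, rose by 0.33 ± 0.034.

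Among basal progenitor and proneural genes 6 of 18 were higher (33.3%, against 12.2% of all genes) and 3 lower (16.7%, against 11.0%). Factors of newborn neurons that rose were Neurod1 from 813 to 1113 normalized counts (0.45 ± 0.062), Nhlh1 from 486 to 697 (0.52 ± 0.070) and Neurod4 from 48.3 to 78.3 (0.70 ± 0.24). Eomes, the marker of basal progenitors, was at -0.0058 ± 0.035 and Neurog2, the dorsal proneural factor, at -0.097 ± 0.039, and neither was called. General neuronal genes were mixed, with 4 of 23 higher (17.4%), 8 lower (34.8%) and a median of -0.00018. Neurofilament genes Nefm and Nefl fell by 0.37 ± 0.044 and 0.36 ± 0.070 and Tubb3, the neuronal tubulin, by 0.084 ± 0.014, while Rbfox3, which encodes NeuN, rose by 0.21 ± 0.042 by the authors' deposited table.

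Dorsal and ventral lists are given side by side, and the difference between them was not tested. Of 20 genes of cortical projection neurons 11 were higher and 6 lower, with a median log2 fold change of 0.12, and of 22 genes of the ventral forebrain and GABAergic neurons 15 were lower and 1 higher, with a median of -0.34. Nfib, a nuclear factor I gene of deep-layer neurons and glia, rose from 14580 to 20870 normalized counts (0.52 ± 0.018, DESeq2 adjusted p = 1.2e-170 in the authors' deposited table). Nfia rose by 0.42 ± 0.028, Sox5, a factor of corticofugal neurons, by 0.33 ± 0.027 and Mef2c by 0.33 ± 0.035. Cortical factors that fell were Pou3f3 (-0.21 ± 0.018), Pou3f2 (-0.21 ± 0.030), Emx1 (-0.16 ± 0.044) and Tbr1 (-0.082 ± 0.022), and Bcl11b, a factor of subcerebral neurons, was at -0.0016 ± 0.021.

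On the ventral side Nkx2-1, which patterns the medial ganglionic eminence and the hypothalamus, fell from 1218 to 614 normalized counts (-0.99 ± 0.062, DESeq2 adjusted p = 8.2e-55 in the authors' deposited table). Lhx8, a factor of cholinergic neurons, fell by 0.76 ± 0.080, Dlx2 and Dlx1, the patterning genes of GABAergic progenitors, by 0.45 ± 0.048 and 0.20 ± 0.027, and Gad2 and Gad1, the enzymes that make GABA, by 0.38 ± 0.030 and 0.16 ± 0.033. Sst, the neuropeptide of an interneuron class, rose by 0.11 ± 0.040. Cajal-Retzius cells, the early neurons of the cortical surface, had 8 of 10 markers lower and 0 higher. Their secreted product Reln fell by 0.24 ± 0.019 (10200 to 8637), Lhx5 by 0.92 ± 0.12 and Calb2, the calcium buffer calretinin, by 0.93 ± 0.13. Olig2, a factor of ventral progenitors and oligodendrocyte precursors, fell by 0.80 ± 0.13, while Olig1 (0.18 ± 0.20) and Pdgfra (0.093 ± 0.16) were not called.

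Several of the largest falls were in genes of the hypothalamus and diencephalon. This list of genes was drawn up after the values were seen and gives no independent support: 17 of its 22 measured members were lower and 1 higher, with a median of -0.72. Nkx2-1, Lhx5, Zic1 and Dlk1 are also in other lists described here. Otx2, the factor of the diencephalon, midbrain and eye, fell from 206 to 77.7 normalized counts (-1.41 ± 0.15, DESeq2 adjusted p = 1.4e-18 in the authors' deposited table). Slc18a2, the vesicular monoamine transporter, fell from 700 to 342 (-1.03 ± 0.073), Vax1, of the optic stalk and ventral forebrain, by 1.02 ± 0.23 and Zic1 by 0.88 ± 0.057 (4432 to 2413). Sim1 (0.11 ± 0.17) and Fezf1 (0.038 ± 0.11), also hypothalamic factors, were not called, and Lhx9, of the thalamus, rose by 0.28 ± 0.094. The back-calculated levels of the listed genes summed to 13312 in control and 8130 with crotonate. How much of each region an explant held is not given by the labels and was not tested. All 18 genes of a telencephalon list, also made after the values were seen, were measured, and 5 were higher and 7 lower, with a median of -0.050. Their back-calculated levels summed to 90651 in control and 91280 with crotonate. In such sums the most abundant genes weigh most, and this list too gives no independent support.

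**Figure D3:**
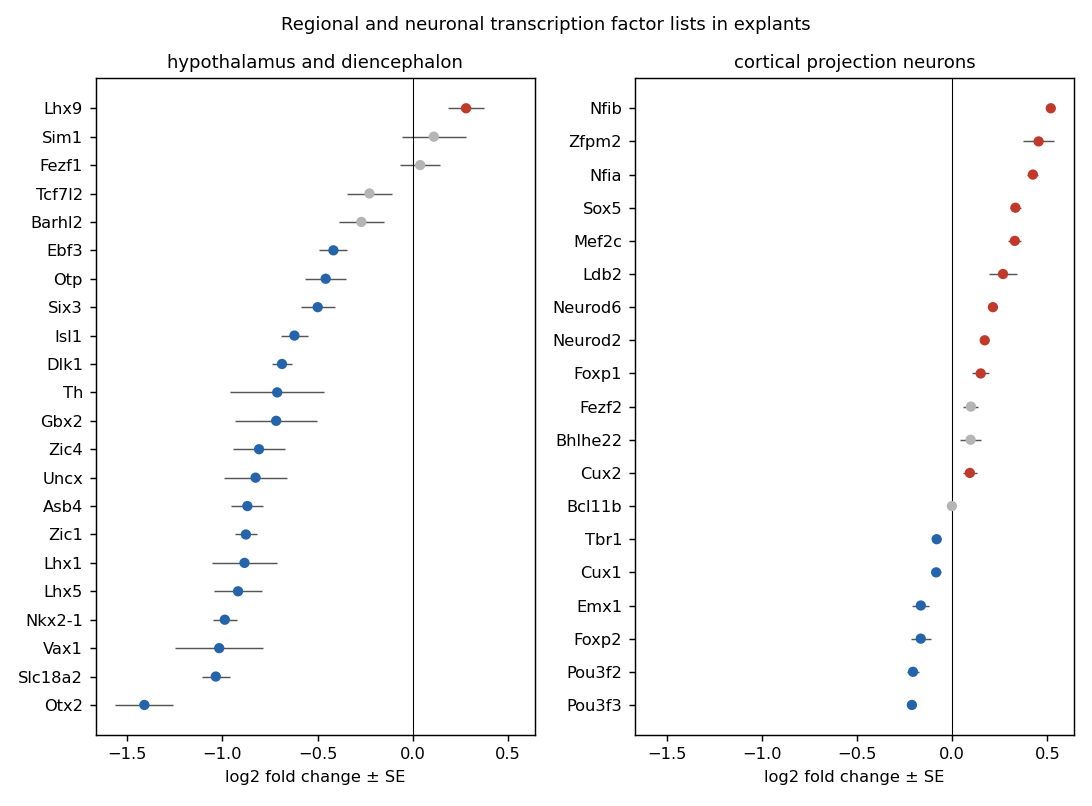
Deposited log2 fold change ± SE of the measured genes of the hypothalamus and diencephalon (left, a list made after the values were seen) and of cortical projection neurons (right, 1 member not drawn), on 1 scale, with red for higher, blue for lower and grey for genes not called. On the left 17 of 22 lie below 0 in blue, down to Otx2 at -1.41, and on the right the red points reach up to Nfib at 0.52.

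Dct, an enzyme of melanin synthesis, rose from 51.7 to 96.5 normalized counts (0.90 ± 0.20), and Cyp26b1, which degrades retinoic acid, and Rlbp1, a retinoid carrier, rose by 0.78 ± 0.13 and 0.43 ± 0.049, in the authors' deposited table. Aldh1a3, which makes retinoic acid in the eye, fell by 1.01 ± 0.18. These 4 genes and Otx2 are the measured ones of an eye and pigment cell list, also made after the values were seen: 3 were higher and 2 lower.

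Signalling pathways were mixed, and the shares over all genes were 12.2% higher and 11.0% lower. Of 14 Hedgehog pathway genes 4 were lower and 2 higher: the receptor and target Ptch1 fell by 0.21 ± 0.047, the target Hhip by 0.71 ± 0.23, and the co-receptor Gas1 by 0.33 ± 0.065, while the co-receptor Cdon and the dorsal repressor Gli3 rose by 0.25 ± 0.031 and 0.13 ± 0.039. Of 23 genes of FGF, EGF and IGF signalling 5 were lower and 1 higher, where Fgf15, a secreted FGF, fell by 0.83 ± 0.11, its receptor family member Fgfr3 by 0.47 ± 0.038 and the target Etv1 by 0.51 ± 0.058. Of 25 Wnt genes 5 were higher and 2 lower, among them the ligand Wnt7b (0.16 ± 0.030) and the target Apcdd1 (0.27 ± 0.062) on the higher side and the receptors Fzd7 (-0.43 ± 0.10) and Fzd8 (-0.26 ± 0.054) on the lower. Bmp and TGF-beta genes had 4 of 18 lower and 1 higher, the signal transducer Smad5 (0.11 ± 0.025), with a median of 0.017, and 3 of the lower were Id genes, which BMP signals induce: Id1 fell by 0.51 ± 0.13, Id3 by 0.45 ± 0.14 and Id4 by 0.20 ± 0.028 in the authors' deposited table.

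Axon guidance genes went both ways, with 13 of 36 lower (36.1%, against 11.0% of all genes) and 8 higher (22.2%, against 12.2%). Ntn1, the attractant netrin-1 of the floor plate, fell from 1572 to 926 normalized counts (-0.76 ± 0.046, DESeq2 adjusted p = 2.1e-58 in the authors' deposited table) and its receptor Dcc by 0.20 ± 0.022. Draxin, a secreted repellent that binds netrin and Dcc, rose by 0.36 ± 0.038, and the adhesion protein Cntn2 by 0.25 ± 0.018. Synaptic genes had 10 of 45 higher (22.2%, against 12.2% of all genes) and 5 lower (11.1%, against 11.0%). In the highest of 4 bins by baseMean the shares of all genes were 21.6% and 18%, and the list was not matched for level. The synaptic calls were led by the AMPA receptor subunit Gria2 (0.22 ± 0.017) and, downwards, by the adhesion gene Nrxn3 (-0.33 ± 0.038). Other genes with small adjusted p on the higher side were Nuak1, an AMPK-related kinase of axon branching (2792 to 4379, 0.65 ± 0.033), and Tiam2, an activator of Rac (2799 to 3951, 0.50 ± 0.031).

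Imprinted genes were mostly lower: 19 of 35 fell, 1 rose, and the median was -0.13. Mest fell from 9477 to 6977 normalized counts (-0.44 ± 0.023, DESeq2 adjusted p = 1.5e-77 in the authors' deposited table), Dlk1, a Notch-like ligand, by 0.69 ± 0.053, Grb10, an adaptor that limits insulin signalling, by 0.32 ± 0.021 and Peg3 by 0.25 ± 0.023. Both maternally and paternally expressed genes were among them, with the maternally expressed RNAs H19 and Meg3 at -0.27 and -0.13. The 1 member that rose was Zrsr1, a splicing factor gene (0.27 ± 0.096).

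Of 17 histone genes 9 were lower and 0 higher. H1f10, a linker histone, fell from 1097 to 623 (-0.82 ± 0.060), H2bc4 by 0.80 ± 0.14 and H2ax, the variant that marks DNA breaks, by 0.38 ± 0.035 in the authors' deposited table. Genes that make, place, read or remove crotonyl groups were called at shares near or below those of all genes (12.2% higher, 11.0% lower). Higher and lower shares were 6.67% and 6.67% for crotonyl-CoA metabolism and 12.5% and 6.25% for deacetylases and sirtuins. For acyltransferases and readers they were 8.7% and 13%. Of 15 genes of crotonyl-CoA metabolism 1 was higher, the thiolase Acat1 (0.13 ± 0.029), and 1 lower, the acetyl-CoA synthetase Acss1 (-0.18 ± 0.046). Of 16 deacetylases and sirtuins 2 were higher, Hdac2 (0.047 ± 0.018) and Sirt7 (0.18 ± 0.067), and 1 lower, Sirt1 (-0.22 ± 0.073). Of 23 acyltransferases and readers 3 were lower, the writers Ep300 (-0.14 ± 0.030) and Crebbp (-0.10 ± 0.033) and the YEATS reader Yeats4 (-0.29 ± 0.034), and 2 higher, the YEATS reader Mllt3 (0.14 ± 0.031) and the acetyltransferase Kat6b (0.11 ± 0.027). Polycomb genes had 5 of 24 lower (20.8%) and 3 higher (12.5%), and the methyltransferase Ezh2 rose by 0.13 ± 0.023.

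In metabolism, cholesterol synthesis had 9 of 23 lower (39.1%, against 11.0% of all genes) and 3 higher (13%, against 12.2%). Hmgcs1, an early enzyme of the route, fell by 0.24 ± 0.017, and Insig1, its feedback sensor, by 0.37 ± 0.036 in the authors' deposited table. Of 28 genes of fatty acid oxidation, the route by which crotonyl-CoA is also used, 2 were lower (7.14%) and 1 higher (3.57%). These were led by the peroxisomal thiolase Acaa1a (-0.38 ± 0.051). Nuclear genes of oxidative phosphorylation had 4 of 35 higher (11.4%) and 1 lower (2.86%). Of the 13 protein-coding genes of the mitochondrial genome, which are not among the 11576, 7 were lower and 1 higher. Among the lower, mt-Nd5 was at -0.69 ± 0.018 and mt-Nd6, on the other strand, at -0.83 ± 0.048. Some that were not called had a large SE despite a high level: mt-Co3 2.21 (baseMean 16470), mt-Atp6 2.1 (19610) and mt-Co2 1.57 (11680).

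Ribosomal protein genes rose by small amounts, with 29 of 48 higher, 1 lower and a median log2 fold change of 0.10. Rpl13 rose by 0.21 ± 0.019 and Rplp1 by 0.24 ± 0.022, but Rpl30 went from 1248 to 3552 normalized counts (1.51 ± 0.071, DESeq2 adjusted p = 1.3e-97 in the authors' deposited table). The 1 member that fell was Rpsa (-0.36 ± 0.018). Rpsa and other genes with near-identical copies have to be read with their copies, since reads can be split between them. The families that follow were chosen after the values were seen. The processed pseudogene Rpsa-ps10 rose by 1.61 ± 0.026 (2385 to 7298) while Rpsa went from 24313 to 19000, and the sum of both changed by a log2 ratio of -0.022. Rps3a1 fell by 0.50 ± 0.019 while its pseudogenes Rps3a2 and Rps3a3 rose by 1.87 ± 0.055 and 1.68 ± 0.078, and their sum changed by -0.095. Tpm3, a tropomyosin, rose by 0.36 ± 0.027 while the related Tpm3-rs7 fell by 1.82 ± 0.17, and their sum changed by -0.12. For Csnk2a1 and the pseudogene Csnk2a3, which rose by 1.15 ± 0.12, the sum changed by 0.0062.

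Extracellular matrix genes had 13 of 33 lower (39.4%, against 11.0% of all genes) and 4 higher (12.1%, against 12.2%). Vcan, the proteoglycan versican, fell from 15030 to 12290 normalized counts (-0.29 ± 0.018, DESeq2 adjusted p = 4.4e-57 in the authors' deposited table) and Col3a1, a fibrillar collagen, by 0.76 ± 0.094. Markers of other cell types that a forebrain explant can hold moved with the groups in part. Of 10 measured meningeal fibroblast markers 4 were lower and 1 higher, and Zic1, which the hypothalamus list also holds, was 1 of the 4; their back-calculated levels summed to 9979 in control and 7141 with crotonate. Of 6 erythroid genes 5 were lower and 0 higher, with Hbb-bs, an adult beta globin, at -0.44 ± 0.024 and Hbb-y, an embryonic one, at -0.43 ± 0.025, and these levels summed to 30305 and 21880. Of 15 endothelial markers 1 was higher (6.67%, against 12.2% of all genes) and 1 lower (6.67%, against 11.0%), the latter Slc2a1, which the hypoxia list also holds. Pecam1 (-0.14 ± 0.093), Cdh5 (-0.027 ± 0.096) and Kdr (-0.051 ± 0.065) were not called. Of 6 measured microglia markers none was called, and the choroid plexus marker Ttr had a baseMean of 2.45. The part of these cells in the results above was not tested.

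Early response genes were split, with 5 of 21 higher (23.8%, against 12.2% of all genes) and 6 lower (28.6%, against 11.0%). Egr1 rose by 0.66 ± 0.10 (187 to 296) and Jun by 0.25 ± 0.025, while Fosb fell by 0.71 ± 0.11, Fos by 0.32 ± 0.071 and Jund by 0.42 ± 0.056 in the authors' deposited table. Ifit2 rose by 0.75 ± 0.22 and was the only one of 9 measured interferon and MHC class I genes that was called (11.1% higher, near the 12.2% of all genes).

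**Figure D4:**
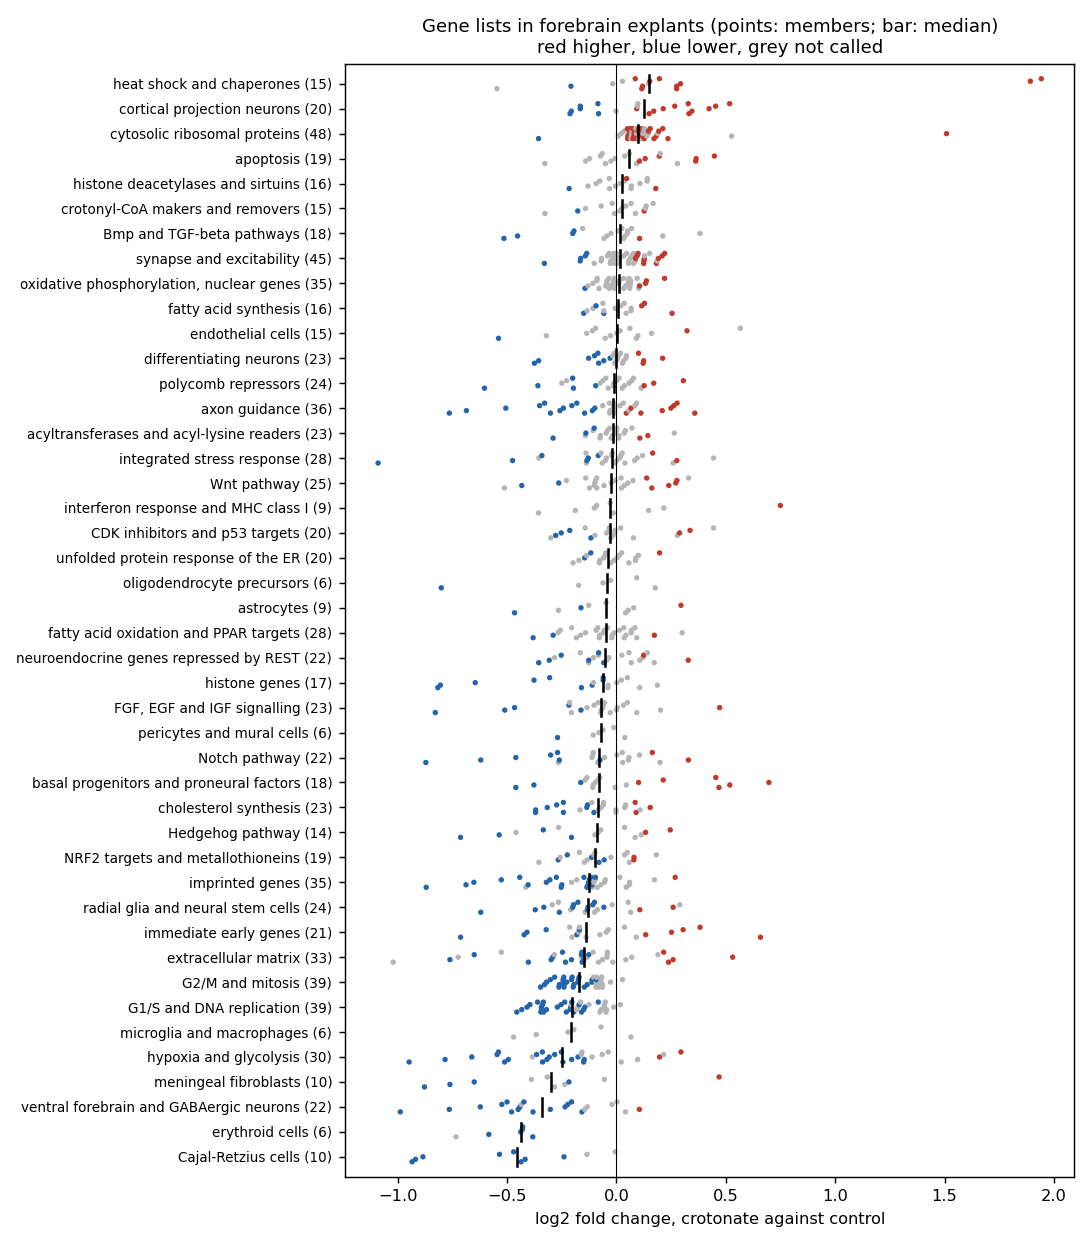
Deposited log2 fold changes of the measured members of all planned gene lists except choroid plexus and cytokines, which had few members, 1 point per gene with red for higher, blue for lower and grey for genes not called, and a black bar at each list's median, ordered by median, with the number of members in brackets. Chaperones (0.15) and cortical projection neurons (0.12) are at the top and erythroid (-0.43) and Cajal-Retzius genes (-0.45) at the bottom.

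The share of called genes rose with the level, and the list shares above are set against all genes without matching for level. In 4 bins of equal size by baseMean, the lowest had 4.63% higher and 5.91% lower and the highest 21.6% and 18%, where the median SE was 0.031 against 0.16 in the lowest. Genes called higher were longer: their median length was 35106 bp, against 23277 bp for genes called lower and 24529 bp for those not called. Within the 3 upper bins of baseMean this held (38459 against 23277 bp in the third, for example), but in the lowest bin genes called higher had a median of 21077 bp and genes called lower 23784 bp. In 5 bins of length of equal size the share called higher was 9.5% in the shortest and 16.2% in the longest, and the share called lower 12.6% and 11.2%.

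The untreated forebrain peak lists, 1 library per mark, place 2 marks of lysine 9 of histone H3, crotonylation (H3K9cr) and acetylation (H3K9ac), at most of these genes. An H3K9cr peak lay within 1 kb of the start of 90.3% of 1106 genes called higher (95% Wilson interval 88.4 to 91.9), 84.1% of 989 called lower (81.7 to 86.3) and 85.3% of 7028 not called (84.4 to 86.1). For H3K9ac the shares were 95.9%, 92.5% and 94%. The intervals cover counting error only, and level moves with these shares: in the lowest bin by baseMean an H3K9cr peak was at 59.8% of genes called higher, 51.2% of those called lower and 64.4% of those not called, and in the highest at 96.2%, 95.7% and 97.2%. Within each bin the share was thus highest in genes that were not called, except in the second, where it was 89% in genes called higher and 88.8% in genes not called.

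In NSPCs the pan-crotonyl-lysine (Kcr) peak lists of the control and crotonate libraries allow the genes to be split by a peak within 1 kb of the start. Of 1349 genes with a Kcr peak in the crotonate list and none in the control list, 11.8% were higher in explants and 9.19% lower. Among 5642 genes with a peak in both lists the shares were 13% and 11.2%, among 1489 with a peak in neither 10.5% and 12.2%, and among 643 with a peak in the control list alone 9.33% and 8.4%. The medians of the explant log2 fold change in these 4 sets were 0.0077, 0.0023, 2.2e-05 and 0.011. With 1 chromatin library per treatment these are descriptions with no test. At Hspa1b a Kcr peak was listed in crotonate-treated NSPCs and not in control NSPCs, at its near-identical neighbour Hspa1a neither list had one, while at Nkx2-1 and Otx2 both forebrain marks had a peak and neither Kcr list did.

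The NSPC RNA libraries are an independent set under crotonate, and share no library with the explants. They differ from the explants in strain, in culture and possibly in dose and time. Of the 11576 genes 11013 were tested there with limma on log2(TPM + 1), in a fit that did not pair the replicates. With crotonate 3401 (30.9%) were higher and 2174 (19.7%) lower. With median-of-ratios scaling of TPM the counts were 2302 and 3911, so the balance of higher and lower genes in NSPCs depends on the scaling. Of genes called higher in explants and tested in NSPCs 33.3% were higher there, which is near the 30.9% of all genes tested. Of genes called lower in explants 33.6% were lower in NSPCs, against 19.7% of all genes tested. Of NSPC calls 13.4% of the higher and 18.3% of the lower ones were called the same way in explants. Over all genes 12.2% and 11.0% were called in these directions in explants. By direction 456 genes were higher in both, 397 lower in both, 246 higher in explants and lower in NSPCs, and 292 lower in explants and higher in NSPCs. With median-of-ratios scaling these 4 counts were 306, 588, 491 and 195, so which of the opposite sets was larger turned with the scaling. Across the 11013 genes, which are not independent replicates, Spearman's rho of both log2 fold changes was 0.078 and Pearson's r 0.026. Spearman's rho of the explant values with those of MS-275 in NSPCs, a contrast that shares its control libraries with that of crotonate, was 0.097.

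**Figure D5:**
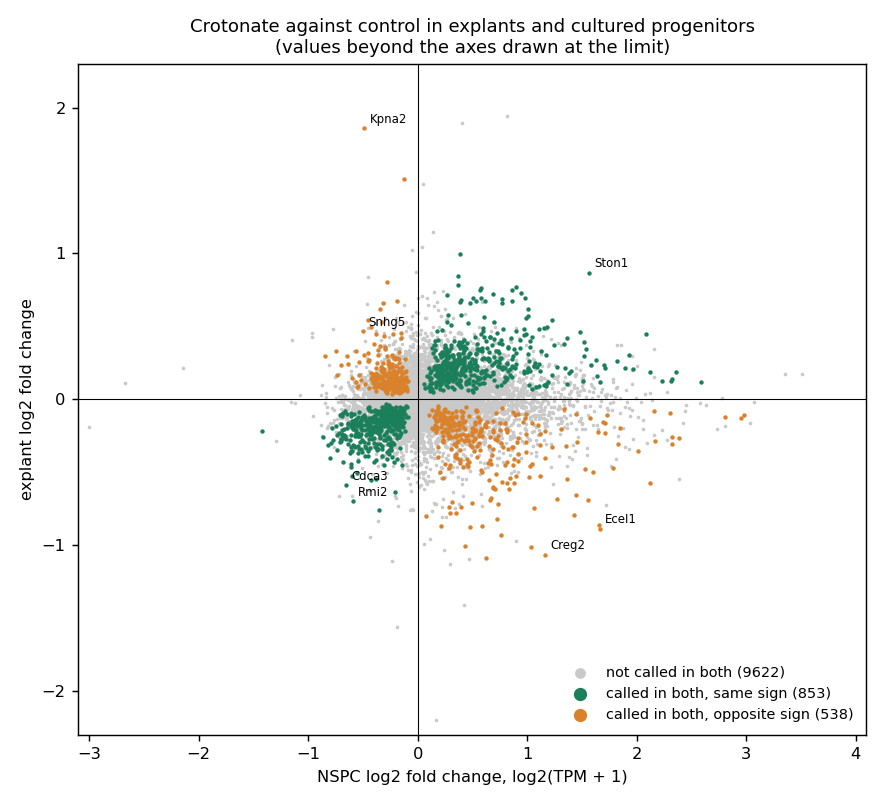
Log2 fold change with crotonate in explants (vertical, deposited) against that in NSPCs (horizontal, limma on log2(TPM + 1)), 1 point per gene, with genes called in both in the same direction in green, in opposite directions in orange and the others in grey (values beyond the axes are drawn at the edge). Points lie on all sides of the origin, with 853 of the genes called in both moving in the same direction and 538 in opposite directions. Over all genes tested 30.9% were higher and 19.7% lower in NSPCs, and 12.2% and 11.0% in explants.

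The genes of this paragraph were chosen because they were called in the same direction in explants and NSPCs. NSPC libraries set apart by group follow in part from that choice and give no independent support. Ston1, an endocytic adaptor gene, was among the largest changes shared by both systems. It had 4.21 to 7.87 TPM in 4 control and 17 to 22.4 TPM in 4 crotonate NSPC libraries, which do not overlap, and went from 101 to 183 normalized counts in explants (log2 0.87 ± 0.16). Ifit2, an interferon-induced gene, had 5.85 to 8.10 TPM in control and 12.4 to 13.6 TPM in crotonate NSPCs, and rose by 0.75 ± 0.22 in explants. Csrnp1, Il17ra, Fam117a and Rab39 were also higher in both. On the lower side Cdca3, a trigger of mitotic entry, had 147 to 168 TPM in control and 89.4 to 107 TPM in crotonate NSPCs (mean 157 ± 9.21 and 99.1 ± 8.03, SD, n = 4 each, limma adjusted p = 0.00038), and fell from 1064 to 708 normalized counts in explants (-0.59 ± 0.056). Stil, a centriole assembly gene, and Zfp36l2, which destabilizes messages, were also lower in both, and all 4 crotonate libraries of each lay below all 4 controls in NSPCs. Slc4a4, Efcab11 and Rmi2 were lower in both too. The NSPC groups overlapped for Slc4a4 (lowest control 31.5 TPM, highest crotonate 31.6 TPM) and for Fam117a (highest control 3.42 TPM, lowest crotonate 3.41 TPM).

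Other genes moved in opposite directions. Kpna2 had 374 to 406 TPM in control and 256 to 292 TPM in crotonate NSPCs, and so fell there while it rose in explants; the difference of the log2 fold changes was 2.35 ± 0.14 (adjusted p = 1.2e-57, Wald test over the 9975 genes with at least 5 TPM, of which 4523, or 45.3%, differed). Snhg5, a host gene of small nucleolar RNAs, had 80.7 to 104 TPM in control and 62.6 to 72.2 TPM in crotonate NSPCs, against a rise of 0.46 ± 0.048 in explants. Aldh1a3 had 5.74 to 8.96 TPM in control and 12 to 19.8 TPM in crotonate NSPCs, against a fall of 1.01 ± 0.18 in explants. Creg2, Ecel1 and Fgd5 likewise rose in NSPCs and fell in explants. The explant and NSPC tables were normalized separately, so the test of the difference is approximate. The genes of this paragraph were chosen for their opposite calls, so the test gives them no independent support.

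Lists can be set side by side in the same way, but the shares called differ between the systems. Over all genes tested 30.9% were higher and 19.7% lower in NSPCs, against 12.2% and 11.0% in explants. Cell division genes fell in both: 33 of 39 G1/S genes and 38 of 39 G2/M genes were lower in NSPCs, with medians of -0.45 and -0.59, where the explant medians were -0.20 and -0.17. Cholesterol synthesis had 20 of 23 lower in NSPCs and 9 of 23 in explants. For neuronal lists 17 of 23 general neuronal genes and 31 of 41 synaptic genes were higher in NSPCs, against 4 of 23 and 10 of 45 in explants, and of imprinted genes 21 of 31 were higher in NSPCs where 19 of 35 were lower in explants. In the chaperone list 8 of 15 were lower and 1 higher in NSPCs. Hspa1b had mean levels of 2.87 TPM in control and 5.80 TPM in crotonate NSPCs and was not called there (limma adjusted p = 0.052). Ddit4 rose in NSPCs from 69.7 to 106 TPM (log2 0.62 ± 0.16, limma adjusted p = 0.0055), and Vegfa was at 72.4 and 51.2 TPM and was not called (limma adjusted p = 0.096). With median-of-ratios scaling 36 G1/S, 39 G2/M, 23 cholesterol and 11 chaperone genes were lower in NSPCs, and 1, 0, 0 and 1 higher. With that scaling 15 general neuronal, 25 synaptic and 18 imprinted genes were higher in NSPCs, and 5, 2 and 2 lower. The differences between explants and NSPCs in these lists were not tested.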

How the data were processed

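RNA was measured in 3 control and 3 crotonate explant libraries and in 12 NSPC libraries (4 each of control, crotonate and MS-275). The submitters' processing notes name Salmon 1.0.0, DESeq2 1.26.0, Bowtie2 2.3.5.1 and MACS2 2.2.5, with the build GRCm38 and with no role or order; annotation, filters and peak thresholds are not given in the sources used here. Per the file headers, the explant table deposited by the authors holds a signal (baseMean, the mean DESeq2-normalized count), a log2 fold change with its SE, a Wald score, and a p-value with its adjusted p, written as 1 where none was computed. The deposited adjusted p was recomputed as Benjamini-Hochberg over 14507 rows with a baseMean of at least 16.2, with a largest gap of 1.7e-15. The NSPC values are TPM made by the authors. The forebrain peak lists deposited by the authors hold a score, a fold enrichment (ratio) and −log10 p and q, none of which was used to rank or filter, and the NSPC lists hold positions alone.

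Genes were placed on chromosomes from RefSeq by Entrez ID (11551) or symbol (25). Rows without a position (416), on X (440), on Y (6) and placed on the mitochondrial genome (2, both ribosomal RNAs) were left out. The 13 protein-coding genes of the mitochondrial genome had no position and are among the 416. Group means were back-calculated from baseMean and fold change for groups of equal size. For NSPCs, limma 3.58.1 (R 4.3.3) was run on log2(TPM + 1) over genes that reached 1 TPM in 4 or more libraries, as 1 fit of 3 groups, two-sided, with Benjamini-Hochberg adjustment over all genes tested. Genes were matched between tables by symbol. The script was tested on simulated data. The difference between both systems was divided by the root of the summed squared SEs, for genes with at least 5 TPM, with a two-sided normal p. NSPC libraries with the same replicate number deviated together (12 correlations of 0.119 to 0.241, 36 others of -0.197 to 0.0993), so the numbers pair the samples. The NSPC calls, SEs and adjusted p given here nevertheless come from the fit without this pairing, except where a replicate block is named. The difference between both systems was not tested with that block. The explant libraries have no values to check in this way. Peaks were counted at the starts of the 9123 genes with a RefSeq promoter, and the other 2453 were left out, although the design had foreseen either end of genes without a known strand. The other steps ran in Python 3.11.15 with SciPy 1.17.1, pandas 2.3.3 and, for figures, matplotlib 3.10.9.

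The genes and the 46 lists (1140 symbols, 916 among the 11576 genes) were chosen with earlier results of these data known, and 3 further lists after their values were seen. Genes with predicted names were not named, and some named genes are not reported here. Named genes are the 15 per direction with the largest change, the 10 per direction with the smallest adjusted p, up to 4 of each list in its main direction and 2 in the other, the first 3 markers of each cell type, and, of genes called in both systems, the 6 largest in each shared and the 4 largest in each opposite direction. Other members of a list named in the text were chosen after their values were seen.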

Additional observations from a re-analysis of the deposited data

Results flagged for a closer look

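The log2 fold change with crotonate differed between explants and NSPCs for 4 genes that the naming rule takes from both systems. The Wald test of the difference was adjusted over 9975 genes, of which 4523, or 45.3%, differed. Kpna2, Snhg5 and Aldh1a3 were chosen because they were called in opposite directions. Their differences follow from that choice and give no independent support. Kpna2 was higher in explants by 2.35 ± 0.14 (SE, adjusted p = 1.2e-57; reads shared with a copy were not tested), Snhg5 by 0.968 ± 0.089 (adjusted p = 6.9e-26), and Aldh1a3 was lower in explants by -2.05 ± 0.28 (adjusted p = 4.3e-12). Ston1 was called higher in both, and its explant minus NSPC difference was -0.698 ± 0.22 (adjusted p = 0.0039). Among NSPC libraries the highest crotonate library for Ccsap, at 3.41 TPM, lay apart from the other 3 at 2.73 to 2.85 TPM, and chance alone sets apart about 1 in 20 such groups.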

How the results depend on the processing

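Depth per library is unknown, and the explant table allows no library to be left out. No paired analysis was possible because the explant table holds no values per library. The explant counts of 1417 higher and 1275 lower stayed within 1.5 times under adjusted p limits of 0.01 and 0.1, baseMean limits of 10 and 200, all chromosomes, adjustment over the 11576 genes alone, centring, and, chosen after seeing the data, without pseudogenes and predicted names (1359 and 1236). Tested against an absolute log2 fold change of 0.25 they were 63 and 108, and 36.8% of calls were then higher, against 52.6%. Of 233 named genes 27 lost their call at 0.01, 1 on centring and 156 against 0.25. Of 143 recomputed list medians 8, of lists with a median within 0.03 of 0, changed sign with a baseMean limit or centring. In NSPCs the replicate block gave 3517 higher and 2285 lower against 3401 and 2174, and no call of the 20 genes named from both systems ended with it. Leaving out 1 NSPC library gave 3063 to 3352 higher and 1934 to 2071 lower; the NSPC call of Ccsap ended without control 1 (adjusted p = 0.055), that of Slc4a4 without crotonate 2 (0.052), and those of Gramd2 and Efcab11 without any 1 of several libraries and without the TPM filter. Median-of-ratios scaling moved NSPC log2 fold changes by a median of -0.127, gave 3911 lower genes, of which 491 were higher in explants, and made 37.1% of calls higher, against 61%. At an explant adjusted p of 0.01, 158 genes were higher in explants and lower in NSPCs and 194 the reverse. With a peak over the start itself the shares for higher, lower and uncalled genes were 59, 52 and 56.6% (H3K9cr), 88.2, 82.2 and 85.6% (H3K9ac) and 13.8, 14 and 14.6% (NSPC Kcr with crotonate, against 80.5, 76.2 and 76.1% within 1 kb), and within 5 kb the uncalled were at 86.7, 95 and 78.2%. The cause of these moves was not tested.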
